A study of Mus musculus with 12 samples.

Results

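The 6 genes described here encode the membrane-bound Kunitz inhibitors Spint1 and Spint2, the cell-surface protease matriptase (St14), and the urokinase system of protease (Plau), receptor (Plaur) and serpin inhibitor (Serpinb2). They were picked by symbol from a deposited count table of 23420 gene rows. The list was built with results of the tibia-to-femur comparison in view, and Spint1 stood among its largest differences. Values of that comparison are therefore given for these genes as a description, without a p-value. All 6 genes were in the table, and all 6 passed the filter on low counts that left 11806 genes for testing.

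The libraries are bulk RNA-seq of macrophages sorted from marrow of C57BL/6 mice. Tibias had received mesenchymal stromal cells (MSCs), the fibroblast-like support cells of the marrow, and the labels call their macrophages MSC-educated. Femurs of the same animals were untreated. The 2 mice carry the numbers 7 and 19, and each gave 3 tibia and 3 femur libraries, 6 of each bone in all. MSCs went only into tibias and femurs served only as controls, so the effects of the treatment and of the bone cannot be told apart. The series title speaks of leukaemic marrow. Whether these mice carried leukaemia, their age and sex, and the source, dose and timing of the MSCs are not stated in the labels. The labels do not say whether the 3 libraries of a bone came from separate sorts, so p-values measure the spread between libraries and not between animals.

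Serine proteases at the cell surface cut growth factor precursors, receptors and matrix. Matriptase activates pro-hepatocyte growth factor and the protease-activated receptor PAR2, and is held in check by the Kunitz inhibitors HAI-1 (Spint1) and HAI-2 (Spint2), whose exposed loops block the protease's active site. Urokinase bound to its GPI-anchored receptor turns plasminogen into plasmin beside the membrane, which macrophages use in migration and matrix breakdown, and PAI-2 (Serpinb2) inhibits urokinase and is known as a product of activated monocytes and macrophages.

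In the GENCODE vM21 annotation of GRCm38, Spint1 lies on chromosome 2 from 119237362 to 119249527 on the plus strand. Spint2 lies on chromosome 7 from 29256323 to 29281912 on the minus strand, and Plaur is on the same chromosome from 24462484 to 24475968 on the plus strand. St14 lies on chromosome 9 from 31089402 to 31131853 (minus), Plau on chromosome 14 from 20836660 to 20843385 (plus) and Serpinb2 on chromosome 1 from 107511423 to 107535478 (plus). The table holds 1 count per gene, with no split by exon or transcript. St14 overlaps the opposite-strand gene Gm16071, and Serpinb2 overlaps the same-strand Serpinb10, each with 0 shared exonic bases in that annotation.

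The 250 bases before the transcription start are shown for the Kunitz pair, of which Spint1 stood far apart between the bones and Spint2 did not, and for Serpinb2, which lay lower in the tibia. The sequences are RefSeq's (GRCm38.p6), in the direction of the gene. Capitals mark matches, on either strand, to 6 motifs. They are the GC box GGGCGG, the TATA box TATAAA, the AP-1 motif TGACTCA or TGAATCA, the C/EBP motif TTGCNNAA, the PU.1 motif GAGGAAGT and the E-box CACGTG.
Spint1: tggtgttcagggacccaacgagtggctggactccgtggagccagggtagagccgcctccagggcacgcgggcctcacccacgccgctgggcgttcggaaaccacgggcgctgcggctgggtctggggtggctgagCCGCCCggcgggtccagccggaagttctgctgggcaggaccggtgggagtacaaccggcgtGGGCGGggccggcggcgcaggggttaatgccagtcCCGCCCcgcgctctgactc
Spint2: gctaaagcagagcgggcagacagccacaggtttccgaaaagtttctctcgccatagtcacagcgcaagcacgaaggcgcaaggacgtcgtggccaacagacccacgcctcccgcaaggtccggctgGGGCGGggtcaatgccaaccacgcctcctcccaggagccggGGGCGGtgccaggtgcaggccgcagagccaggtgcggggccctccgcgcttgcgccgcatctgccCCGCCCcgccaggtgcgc
Serpinb2: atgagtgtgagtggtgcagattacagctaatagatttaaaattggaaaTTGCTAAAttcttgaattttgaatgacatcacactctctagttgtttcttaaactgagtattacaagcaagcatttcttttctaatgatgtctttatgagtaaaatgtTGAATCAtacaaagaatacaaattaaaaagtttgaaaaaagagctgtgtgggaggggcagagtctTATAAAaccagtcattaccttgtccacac
RefSeq's starts lie 2 bases before GENCODE's for Spint1, 65 before for Spint2 and at the same base for Serpinb2. These windows are chr2:119237110-119237359 (plus), chr7:29281978-29282227 (minus) and chr1:107511173-107511422 (plus). The Kunitz pair shared a build that Serpinb2 lacked. The Spint1 window was 72.8% G or C with 26 CpG pairs and 3 GC boxes, and the Spint2 window was 69.6% G or C with 24 CpG pairs and 3 GC boxes. The Serpinb2 window was 32.4% G or C, held 0 CpG pairs, and had 1 TATA box, 29 to 24 bases before the start, 1 AP-1 match and 1 C/EBP match. Over 32851 windows of the same length in the table the median was 52.4% G or C and 6 CpG pairs. GC boxes were in 32.7% of them, TATA boxes in 12.4%, AP-1 matches in 6.75%, C/EBP in 9.56%, PU.1 in 2.44% and E-boxes in 6.02%. The Plaur window, not shown, held 6 CpG pairs, 3 GC boxes of which 2 share a base, 1 AP-1 match and 1 C/EBP match, and PU.1 and E-box letters were in none of the 4 windows. A match is a description of letters and not evidence of binding.

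Total counts ran from 9773455 to 14869150 per library. Macrophage genes were present in every library, with Csf1r, the macrophage growth factor receptor gene, at 783 to 1128 CPM (counts scaled to each library's TMM-adjusted total) and Emr1, which encodes F4/80, at 240 to 365 CPM. Neutrophil transcripts were abundant too, as the granule protein gene Ngp reached 4112 to 7407 CPM. Transcripts of MSCs were scarce, with a summed 8.54 to 16.3 CPM over 12 markers in the femur and 8.02 to 12.8 in the tibia, and none of the 5 tested markers passed.

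Spint1 was the member that stood apart between the bones. In mouse 7 the femur libraries held 3.23, 1.40 and 2.22 CPM and the tibia libraries 15.9, 16.3 and 18.3. In mouse 19 the femur libraries held 3.50, 4.54 and 4.48 CPM and the tibia libraries 33.4, 38.7 and 33.0. Every tibia library of either mouse lay above every femur library of both, and mouse 19 was the higher animal in both bones. The mean was 3.23 ± 1.24 CPM in the femur and 25.9 ± 10.2 in the tibia (SD, n = 6 libraries each), and the SD of the tibia is mostly the gap between the mice. Within an animal the libraries were close, at 16.8 ± 1.27 CPM in the tibia of mouse 7 and 35.0 ± 3.21 in that of mouse 19 (SD, n = 3 each).

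On the log2 scale with edgeR's mouse-adjusted fit, the Spint1 difference, tibia over femur, was 2.98 ± 0.12 (SE), or 7.91-fold, and it was the 4th highest of 11806 genes. It was 2.89 ± 0.18 in mouse 7 and 3.05 ± 0.16 in mouse 19. The 3 femur libraries of mouse 7 together held 92 Spint1 counts against 674 in its tibia, and those of mouse 19 held 148 against 1385. Pooled, this was 2.26 CPM in the femur of mouse 7 with a 95% Poisson interval of 1.65 to 3.01, and 16.8 in its tibia with 15.1 to 18.7. In the femur of mouse 19 it was 4.23 (3.32 to 5.31) and in its tibia 34.9 (32.4 to 37.6). The intervals cover counting error only. They were computed on halved counts, because fragments may appear as 2 counts here: 69.8% of counts from 1 to 10 were even. The share of such fragments was not estimated.

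**Figure D1:**
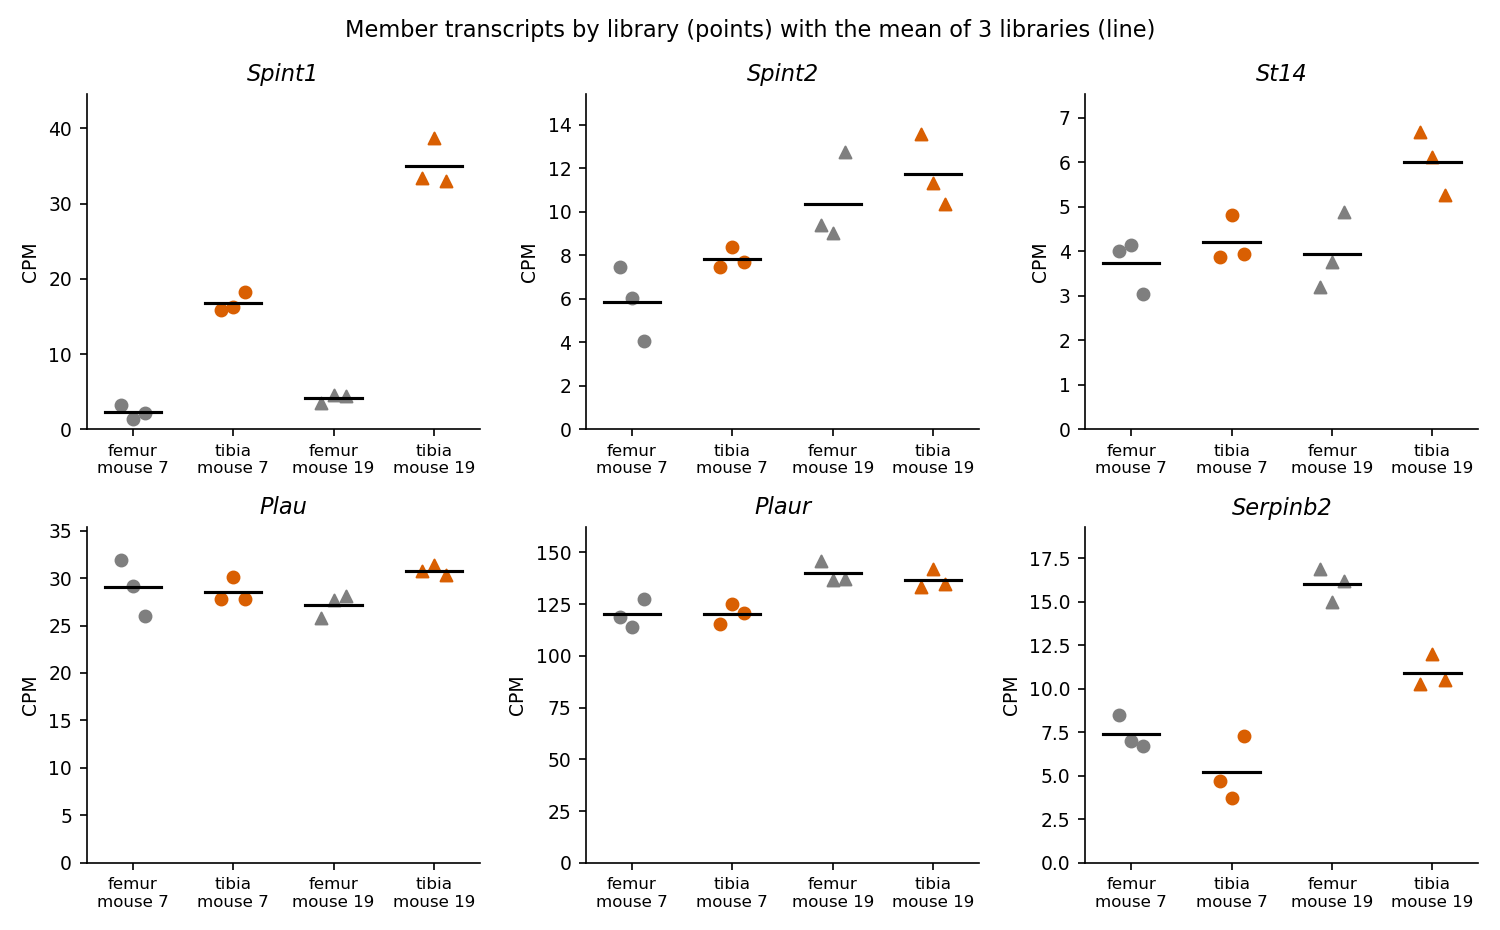
CPM of each of the 6 genes (y axes, from 0) in the 12 libraries, by bone and mouse (x axis). Points are libraries, lines the mean of 3. Spint1 separates the bones in both mice, Serpinb2 is lower in the tibia and higher in mouse 19, and Plaur differs by mouse and not visibly by bone.

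Spint2, the other Kunitz inhibitor, overlapped between the bones. Its libraries read 7.46, 6.03 and 4.07 CPM in the femur and 7.44, 8.38 and 7.67 in the tibia of mouse 7, then 9.36, 9.01 and 12.7 in the femur and 13.5, 11.3 and 10.3 in the tibia of mouse 19. The groups overlapped in both mice, and 5 of 6 tibia libraries lay above the femur mean of their own mouse. The log2 difference was 0.29 ± 0.13, with 0.42 ± 0.19 in mouse 7 and 0.18 ± 0.17 in mouse 19.

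St14, the protease that both inhibitors bind, was low throughout. It read 4.0, 4.14 and 3.03 CPM in the femur and 3.88, 4.81 and 3.94 in the tibia of mouse 7, and 3.19, 3.75 and 4.88 in the femur and 6.67, 6.10 and 5.25 in the tibia of mouse 19. The bones overlapped in mouse 7, whereas in mouse 19 each tibia library was above each femur library. The log2 difference was 0.39 ± 0.16 over both mice, 0.18 ± 0.22 in mouse 7 and 0.60 ± 0.21 in mouse 19. These values rest on 140 to 240 counts per bone and mouse.

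Plau, the urokinase gene, was nearly level. The libraries of mouse 7 were at 31.9, 29.2 and 26.0 CPM in the femur and 27.8, 30.1 and 27.8 in the tibia. Those of mouse 19 were at 25.8, 27.7 and 28.1 CPM in the femur and 30.7, 31.3 and 30.3 in the tibia. The bones overlapped in mouse 7 and did not in mouse 19. The log2 difference was 0.08 ± 0.06 in all, -0.02 ± 0.08 in mouse 7 and 0.18 ± 0.09 in mouse 19.

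Plaur, the urokinase receptor gene, was the most abundant member and showed the smallest difference between bones. In mouse 7 it read 119, 114 and 127 CPM in the femur and 115, 125 and 121 in the tibia, and in mouse 19 it read 146, 137 and 137 in the femur and 133, 142 and 135 in the tibia. The bones overlapped in both mice. The log2 difference was -0.02 ± 0.04, which with 4820 to 5413 counts per bone and mouse is the most precise of the 6.

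Serpinb2, the PAI-2 gene, was the member that lay lower in the tibia. Mouse 7 held 8.47, 7.02 and 6.73 CPM in the femur and 4.67, 3.72 and 7.30 in the tibia. Mouse 19 held 16.9, 15.0 and 16.2 CPM in the femur and 10.2, 12 and 10.5 in the tibia. All 6 tibia libraries were below the femur mean of their own mouse, but tibia library 3 of mouse 7 lay within the femur range of that animal, while in mouse 19 the bones did not overlap. The log2 difference was -0.53 ± 0.12, or 1.44-fold lower, with -0.50 ± 0.19 in mouse 7 and -0.55 ± 0.16 in mouse 19.

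In the fit over all genes, Spint1 was called as higher in the tibia and Serpinb2 as lower, 1 member each way, where 3.51% of 11806 genes were called higher and 3.69% lower (7.20% in all) at a Benjamini-Hochberg adjusted p under 0.05. As these genes were chosen on that contrast, nothing is read from the count. In Spint1 the tibia libraries all lay above the femur libraries of the same animal, which held for 2.44% of tested genes, and 2.76% lay below in that way, Serpinb2 not among them. On counts summed per animal, where the animal is the unit, the log2 difference was 2.98 for Spint1 and -0.53 for Serpinb2, and 0.407% of genes were called higher and 0.144% lower. Spint1 was still among those called, whereas the Serpinb2 call was lost on these sums. The sums use the contrast on which the genes were chosen, so nothing is read from the Spint1 call here either. In the pooled RNA of a sort, fewer cells of a type and less RNA per cell cannot be told apart.

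**Figure D2:**
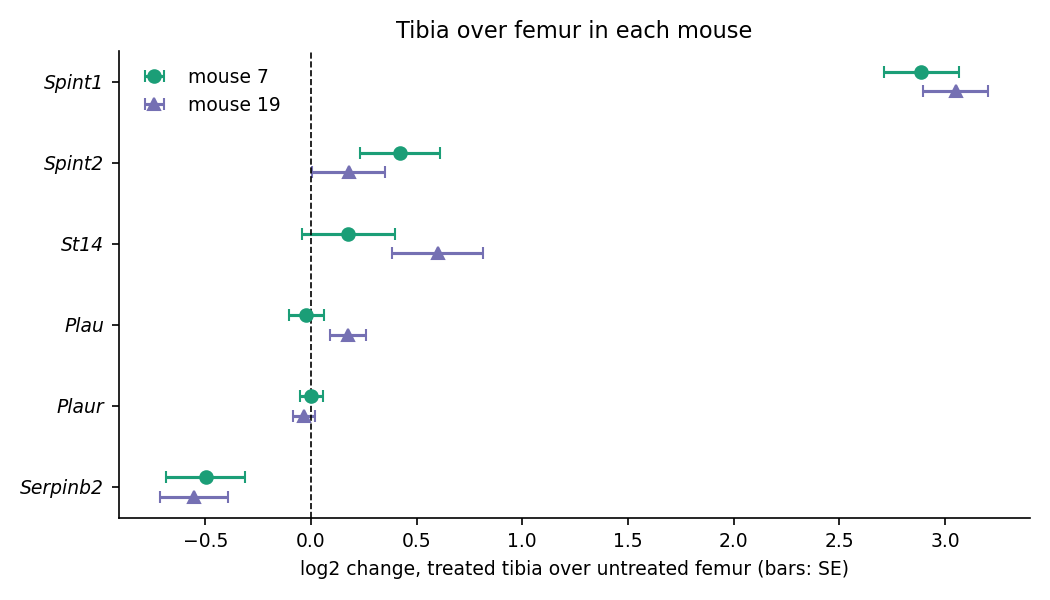
Log2 difference of treated tibia over untreated femur (x axis) for each gene (y axis), with points for mouse 7 and mouse 19 and bars for the standard error. Spint1 lies near 3 in both animals, Serpinb2 near -0.5, and the other 4 genes between -0.03 and 0.60.

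Whether the tibia-to-femur difference itself changed between the animals was not part of how the genes were chosen, and could be tested. None of the 6 genes passed edgeR's quasi-likelihood test of the difference between mice, where 4.74% of all genes did (2.89% higher in mouse 19 and 1.85% lower). The count was 0 at an unadjusted p under 0.05 as well, and 0 with DESeq2. For Spint1 the log2 difference of mouse 19 over mouse 7 was 0.16 (approximate 95% interval -0.36 to 0.68, adjusted p = 0.850). For Serpinb2 it was -0.06 (-0.54 to 0.43, adjusted p = 0.949), for Spint2 -0.24 (-0.75 to 0.26, 0.739) and for St14 0.42 (-0.18 to 1.03, 0.583). The intervals are narrow for Plaur, at -0.18 to 0.11, and for Plau, at -0.04 to 0.43. For Spint1, Spint2, St14 and Serpinb2 the intervals are wide, and they do not show that the animals were alike.

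The animals differed in the level of 4 of the 6 genes, a comparison also apart from the choice of members. In untreated femurs Spint1, Spint2, Plaur and Serpinb2 were higher in mouse 19 by edgeR, where 14.1% of all genes were higher and 14.3% lower (28.4% in all). The same 4 were higher in treated tibias, where 7.22% of all genes were higher and 6.77% lower (14.0% in all). DESeq2 called 4 in each bone as well. The comparison sets 1 animal against 1, so the p-values speak for these libraries. Serpinb2 had the largest gap in the femur, with a log2 difference of 1.11 ± 0.17 (adjusted p = 5.4e-06), and 1.05 ± 0.18 in the tibia (8.4e-05). For Spint1 it was 0.90 ± 0.22 in the femur (adjusted p = 0.0029) and 1.06 ± 0.13 in the tibia (2.9e-07). For Spint1, Spint2, Plaur and Serpinb2 all 3 libraries of mouse 19 were above all 3 of mouse 7 in both bones, which held for 8.37% of tested genes.

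Spint2 was higher in mouse 19 by 0.83 ± 0.19 in the femur (edgeR adjusted p = 0.0010) and 0.59 ± 0.18 in the tibia (0.0218). That tibia call for Spint2 depended on single libraries: leaving out number 1 or 3 of mouse 7, or number 1 of mouse 19, gave adjusted p from 0.0681 to 0.142. Plaur was higher by 0.22 ± 0.05 in the femur (adjusted p = 0.0020) and 0.18 ± 0.05 in the tibia (0.0160), and its tibia call did not survive leaving out tibia number 1 of mouse 7 or number 2 of mouse 19 (0.0889 to 0.102). St14 did not pass, at 0.09 ± 0.23 in the femur (0.806) and 0.52 ± 0.21 in the tibia (0.102), nor did Plau, at -0.09 ± 0.09 (0.478) and 0.11 ± 0.08 (0.450). Summed markers of several other cell types moved with the animal, with the sums of granulocyte and erythroid markers higher in mouse 19. The summed level of 7 neutrophil markers was 15830 to 17401 CPM in the femur and 16114 to 17454 in the tibia of mouse 7, against 23574 to 27109 and 26525 to 28699 in mouse 19. Eosinophil markers summed to 141 to 153 CPM in the femur and 134 to 187 in the tibia of mouse 7, against 348 to 417 and 271 to 344 in mouse 19. Granulocyte precursor markers in the femur summed to 722 to 756 CPM in mouse 7 and 1200 to 1502 in mouse 19, and erythroid markers to 40.1 to 44.3 and 67.8 to 71.5. Most of the erythroid sum was Tfrc, the transferrin receptor gene, with a mean of 41.4 CPM over the femurs of both mice. The summed level of the 12 macrophage markers went the other way, from 18801 to 19411 CPM in the femur of mouse 7 to 15748 to 16224 in that of mouse 19. Most of that sum was Lyz2, a lysozyme gene, with a mean of 14501 CPM over the femurs of both mice, so the sum does not speak for each marker. The part of these markers in the differences between animals was not tested.

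**Figure D3:**
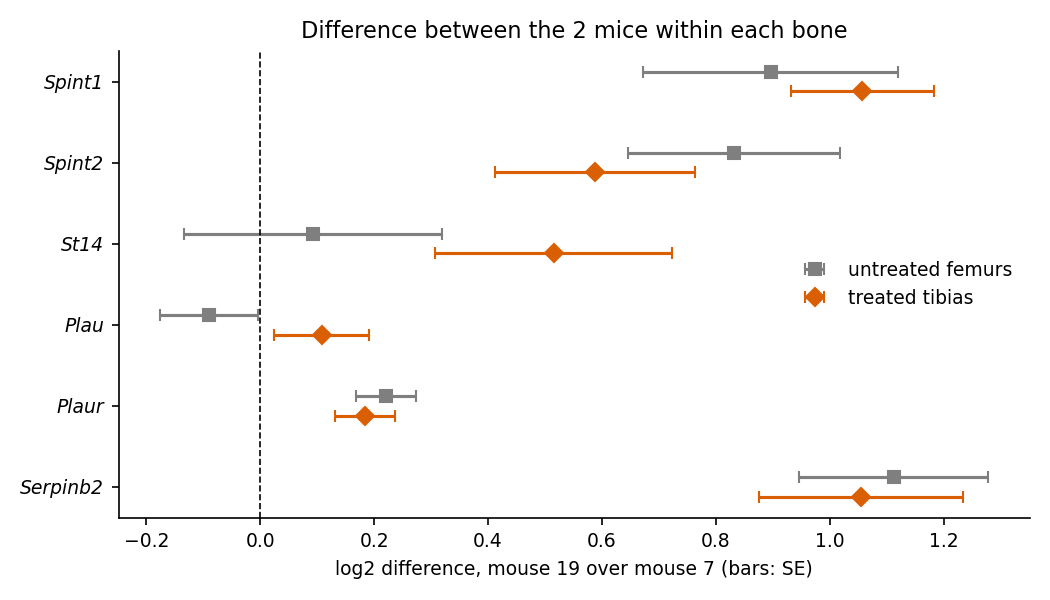
Log2 difference of mouse 19 over mouse 7 (x axis) for each gene (y axis), in untreated femurs and treated tibias, with bars for the standard error. Serpinb2 and Spint1 lie near 1 in both bones, Spint2 and Plaur are above 0 in both, and Plau lies near 0.

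Levels of different genes were compared per kilobase (kb) of exon, as CPM per kb. In the femur Plaur was highest at 86.3 ± 8.07, followed by Plau at 12 ± 0.96 (SD, n = 6 libraries). Spint2 at 5.86 ± 2.16 and Serpinb2 at 5.69 ± 2.33 did not differ beyond their spread, and neither did Spint1 at 1.29 ± 0.50 and St14 at 1.18 ± 0.21. In the tibia the order of the lower members was another. Plaur (85.3 ± 6.64) stayed on top, and over both mice Plau followed at 12.7 ± 0.65 and Spint1 at 10.3 ± 4.08. The Spint1 range of 6.35 to 15.5 took in that of Plau (11.9 to 13.4) and met that of Spint2 (5.37 to 9.79). The order of Spint1 and Plau differed between the mice. Their means were 6.71 and 12.2 in mouse 7, with no overlap, and 14.0 and 13.1 in mouse 19, where the ranges overlapped. Spint2 was at 7.07 ± 1.73, Serpinb2 at 3.92 ± 1.64 and St14 at 1.57 ± 0.35.

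The level of the Spint1 transcript beside those of matriptase and Spint2 therefore differed between the bones, while that of Spint2 beside matriptase overlapped. The ratio of Spint1 to St14, both per kb, had a lowest, median and highest value of 0.441, 1.12 and 1.58 in the 6 femur libraries and 4.40, 6.27 and 8.25 in the 6 tibia libraries. That of Spint1 to Spint2 was 0.129, 0.223 and 0.301 in the femur and 1.07, 1.34 and 1.89 in the tibia. Spint1 was thus the lesser Kunitz transcript in every femur library and the greater in every tibia library. The ratio of Spint2 to St14 overlapped, at 3.16, 5.03 and 6.91 in the femur and 4.10, 4.55 and 4.78 in the tibia. Within mouse 19 its femur values all lay above its tibia values, and within mouse 7 the bones overlapped. Plau to Plaur was 0.114, 0.131 and 0.173 in the femur and 0.142, 0.148 and 0.155 in the tibia. These ratios use the contrast on which the genes were chosen and carry no test.

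**Figure D4:**
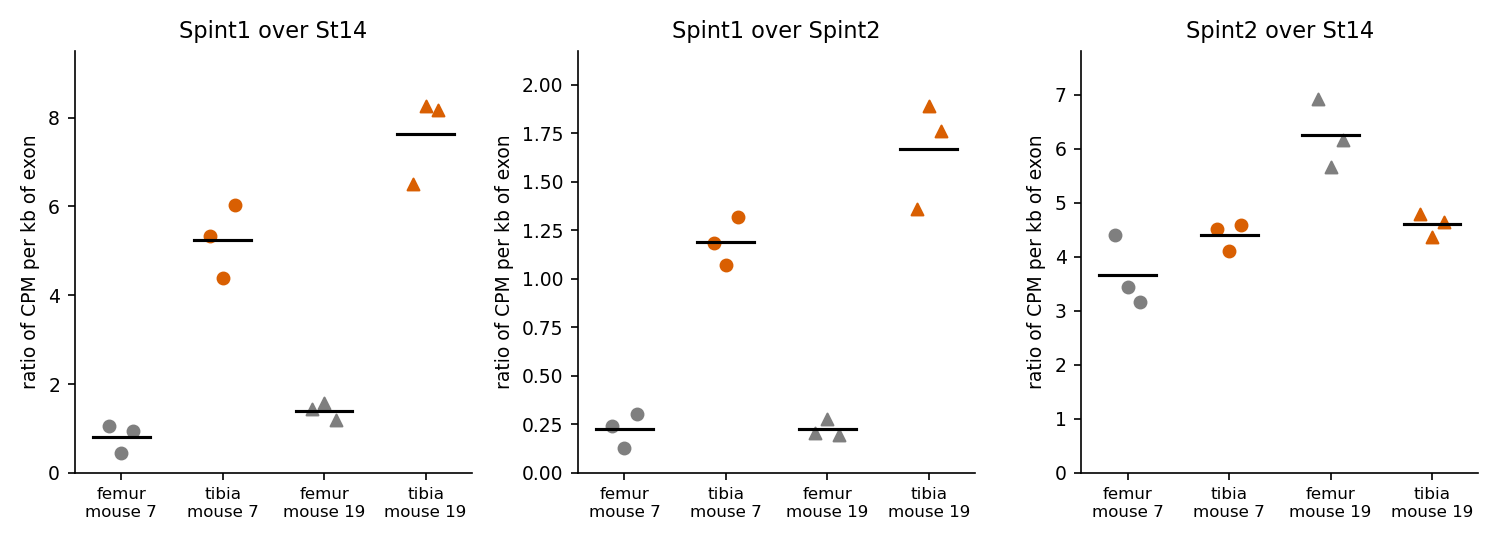
Ratio of CPM per kb of exon (y axes, from 0) in each library, by bone and mouse (x axis), for Spint1 over St14, Spint1 over Spint2 and Spint2 over St14. Lines are means of 3 libraries. The first pair of ratios separates the bones, with tibia values from 4.40 and 1.07 upward, and the third overlaps over both mice, with the femur above the tibia in mouse 19.

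Across the 12 libraries, the log2 CPM of Spint1 was most like that of Spp1, the osteopontin gene (Pearson r = 0.976), among 11191 genes with a mean of at least 1 CPM. Next came F11r, which encodes a junctional adhesion molecule (0.972), Dmkn, the gene of the secreted epidermal protein dermokine (0.965), Rab3il1, a Rab exchange factor gene (0.959), and Tgfbi, a secreted adhesion protein gene (0.958). F11r went from a mean of 21.0 CPM in the femur to 39.1 in the tibia, and Dmkn from 8.27 to 19.6. By Spearman correlation 2 of these 5 genes stayed among the first 5. The libraries share 2 animals and the contrast of bones, so these correlations describe these 12 libraries and carry no p-value. Among the members, r with Spint1 was 0.72 for St14, 0.59 for Spint2, 0.47 for Plau, 0.22 for Plaur and -0.11 for Serpinb2, and Plaur and Serpinb2 had r = 0.78 with each other.

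Spint1 is best known as an epithelial gene, so epithelial transcripts were checked. Of 9 epithelial markers 5 were at 0 in every library (Krt5, Krt14, Krt19, Cldn4 and Esrp1), and Epcam reached at most 0.162 CPM. The sum over the 9 ran from 2.77 to 4.80 CPM in the femur and from 5.06 to 8.35 in the tibia, most of it Cdh1, the E-cadherin gene. Of the 2 markers tested, Cdh1 rose by 0.71 on the log2 scale (edgeR adjusted p = 0.0080), from 3.09 to 5.05 CPM. The other, Krt18, had a log2 change of -0.71, from 0.873 to 0.521 CPM, and did not pass (0.244). Granulocyte precursor markers were higher in the tibia in 6 of 7 genes, with a summed 722 to 1502 CPM in the femur and 1037 to 1823 in the tibia. Of 6 monocyte markers 3 were lower, with 14830 to 15446 CPM in the femur and 13659 to 14174 in the tibia, and of 8 dendritic cell markers 3 were lower (100.1 to 117.7 against 71.7 to 99.4 CPM). The part of these markers in the Spint1 and Serpinb2 differences was not tested.

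Genes of the wider protease control system went both ways between the bones. Of 144 other genes on 6 lists, 56 passed the filter on low counts, and 3 of these rose and 6 fell by edgeR, or 5.36% and 10.7% against 3.51% and 3.69% of all genes (16 of the 56 had an unadjusted p under 0.05, and DESeq2 called 3 and 6). The median log2 change of the 56 was -0.0064, beside -0.0021 over all genes. With the animal as the unit 0 rose and 1 fell (Itgb3). None of the 6 other Kunitz-domain genes tested passed (median 0.25), with 0 also at an unadjusted p under 0.05 and by DESeq2. Among them App, the amyloid precursor gene with Kunitz-bearing isoforms, had 730 ± 19.7 CPM in the femur and 751 ± 14.5 in the tibia, Aplp2, its relative, had 244 ± 25.3 and 239.9 ± 7.95, and Tfpi, which blocks the start of coagulation, had 0.903 and 1.25 CPM.

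Most proteases related to matriptase were below the filter on low counts. Of 25 membrane-anchored serine protease genes 12 had 0 counts in every library and 2 were tested, Hpn and Tmprss3, of which neither passed (median 0.52, 0 at an unadjusted p under 0.05, 0 by DESeq2). Hpn, the gene of hepsin, another HAI-1 target, had 1.86 ± 0.60 CPM in the femur and 2.27 ± 0.73 in the tibia (adjusted p = 0.487). Tmprss6, the gene of matriptase-2, had 0 counts in every library, which allows up to 0.404 to 0.614 CPM in each. Prss8, the prostasin gene (0.0758 CPM in the femur, 0.0389 in the tibia), and F2rl1, the gene of PAR2 (0.175 and 0.0268), were below the filter on low counts.

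Of 20 plasminogen system genes tested, 0 rose and 2 fell (median -0.02, 7 had an unadjusted p under 0.05, and DESeq2 called 0 and 2). Itgb3, the integrin beta 3 gene of the vitronectin receptor, fell by 0.46 (SE 0.05) on the log2 scale, from 49.5 ± 12.8 to 36.2 ± 10.4 CPM (adjusted p = 3.5e-06, 0.0141 on sums per animal). Thbd, the thrombin cofactor thrombomodulin, fell by 0.29 (SE 0.05, adjusted p = 5.1e-04, 0.112 on sums). Plat, the tissue plasminogen activator gene, had 0 counts in every library. Lrp1, the endocytic receptor that clears inhibited urokinase, had 1377 ± 187 and 1335 ± 109 CPM (adjusted p = 0.651), and the plasminogen receptor gene Plgrkt 17.7 ± 1.56 and 20.5 ± 1.85 (0.0912).

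Of 12 genes tested from a list drawn up for substrates and receptors downstream of these proteases, 1 rose and 2 fell (median -0.09). Mst1r, which encodes RON, the receptor of macrophage-stimulating protein, fell by 0.46 (SE 0.11) from 9.05 ± 1.36 to 6.50 ± 0.45 CPM (edgeR adjusted p = 0.0101, 0.269 on sums). Met, the hepatocyte growth factor receptor gene, fell by 0.20 (SE 0.06, adjusted p = 0.0310, 0.356 on sums). The Met call did not survive leaving out femur number 3 of mouse 7, or number 1 or 2 of either bone of mouse 19 (0.0600 to 0.0963). Prom1, a membrane glycoprotein gene on that list, rose by 0.34 ± 0.08 (edgeR adjusted p = 0.0092, 0.196 on sums). Whether these proteases act on its product was not tested. Hgf, the gene of the growth factor itself, was at 15.7 ± 1.24 and 13.9 ± 1.79 CPM and did not pass (0.251).

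Among other inhibitors, 1 of 6 clade B serpins rose (median -0.13), Serpinb1a, an inhibitor of neutrophil elastase and cathepsin G, by 0.22 ± 0.04 (edgeR adjusted p = 4.0e-04, 0.112 on sums). Granulocyte precursor markers, given above, moved the same way, and their part in the Serpinb1a difference was not tested. Of 10 other serpins and secreted inhibitors 1 rose and 2 fell (median -0.07). Serpina3g, a clade A serpin with close copies among which reads can be split, fell by 0.55 (SE 0.11, adjusted p = 0.0036, 0.189 on sums). Wfdc21, listed in the table as 1100001G20Rik, rose by 0.16 ± 0.04 (0.0083, 0.345 on sums), and Wfdc17 fell by 0.14 (SE 0.04, 0.0440, 0.455 on sums), both small secreted proteins with a WAP domain. The Wfdc17 call survived leaving out femur number 1 or tibia number 2 of mouse 19, but not any 1 of the other 10 libraries (0.0551 to 0.117).

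**Figure D5:**
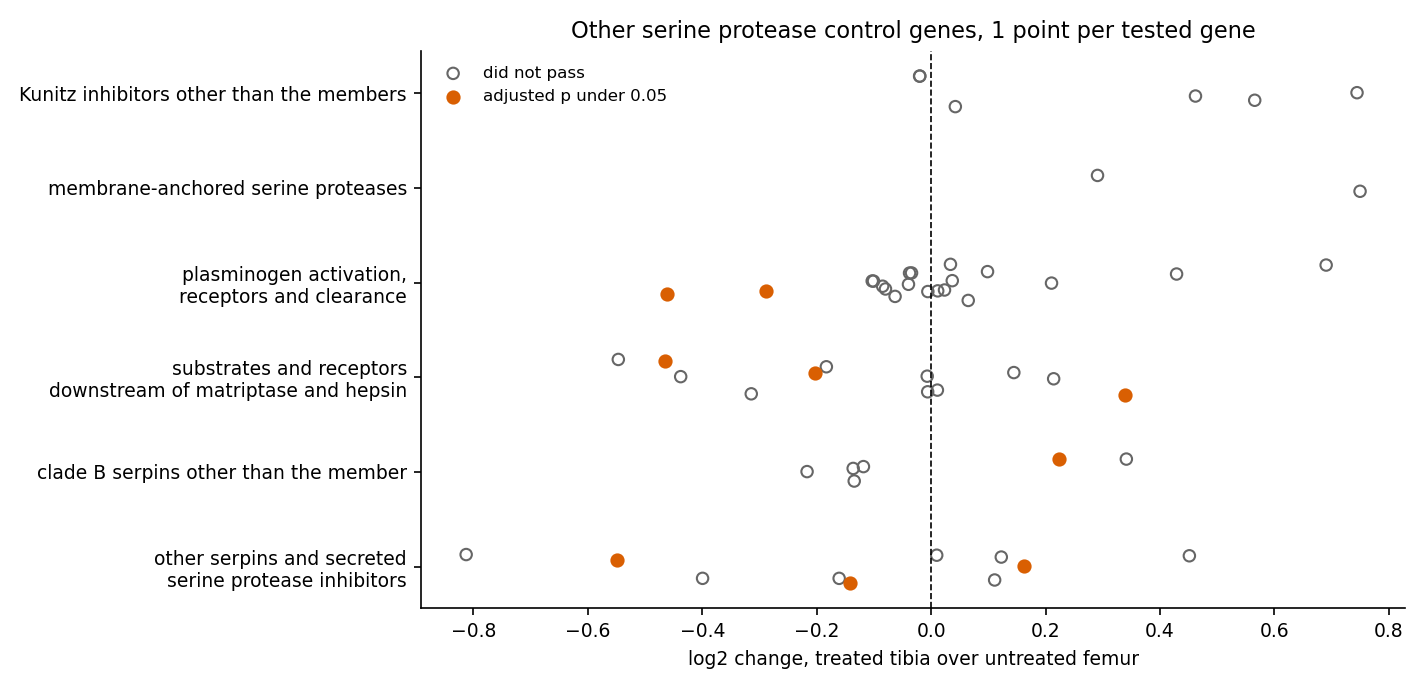
Log2 change of treated tibia over untreated femur (x axis) for the tested genes of the 6 lists (y axis), 1 point per gene, filled where edgeR's adjusted p was under 0.05. The 9 filled points lie between -0.55 and 0.34, while Spint1, not plotted, was at 2.98.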

How the data were processed

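The authors deposited unscaled whole read counts per gene symbol, with 1 column for each library. The submitters' processing notes name the build mm10 and the tools bcl2fastq, HISAT2, featureCounts, Subread and DESeq2, with no versions. Strand handling and annotation are not stated. RNA was column-purified with DNase, and libraries were made with a Vazyme mRNA kit, per the labels' protocols. All 12 columns matched sample titles.

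Tests used edgeR 4.0.16 in R 4.3.3: TMM, filterByExpr (minimum count 10, 4 groups of mouse and bone) and two-sided quasi-likelihood tests over 11806 genes, with a call where the Benjamini-Hochberg p was under 0.05. Tibia over femur had the mouse as a term, and other contrasts used 1 mean per mouse and bone. Sums per animal used the same genes. SEs are the absolute change over the square root of F, and approximate 95% intervals add and subtract 1.96 SE. DESeq2 1.42.0, RLE factors, no filter, halved counts (69.8% of counts from 1 to 10 were even), blocking and leaving out libraries were alternatives. On simulated data with 200 changed genes the tibia test recovered 99.0% of changes of log2 1 and 82.0% of 0.5, with 7.3% false among its calls, and the test between mice recovered 83.8% and 48.0%, with 5.1% false. The simulated counts had 1 spread for all genes, no other difference between mice and no doubled fragments, so recovery in the real counts can be lower. Zero counts allow 3 fragments, or 6 counts if each fragment appears as 2. Exon length is the union of GENCODE vM21 basic coding transcripts.

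Members and lists were chosen with earlier results of these data known. Named are all members, the 5 genes most like Spint1 (log2 CPM, prior count 2), up to 2 called genes per direction and list, and 14 genes set by name, of which 1 is not reported here. The epithelial, granulocyte and other markers were set by name too.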

Additional observations from a re-analysis of the deposited data

Results flagged for a closer look

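Outlying libraries were not looked for, as each mouse and bone has 3. Of the 56 other protease control genes, 7 passed edgeR's quasi-likelihood test of whether the tibia-to-femur difference itself differed between the mice. They were 6 higher in mouse 19 (10.7%) and 1 lower (1.79%), beside 2.89% and 1.85% of all genes (4.74% in all), and they are listed because they passed. Serpinb8, an intracellular serpin gene, had the largest difference, mouse 19 over mouse 7, at 1.01 on the log2 scale (-0.12 in mouse 7, 0.89 in mouse 19, adjusted p = 0.0023). Fpr1 and Fpr2, formyl peptide receptor genes, differed by 0.52 (adjusted p = 0.0051) and 0.30 (0.0284). Aplp2 differed by 0.21 (0.0256), the integrin genes Itgb1 by 0.20 (0.0385) and Itgam by 0.17 (0.0253), and Met by -0.32 (0.0353), with -0.05 in mouse 7 and -0.37 in mouse 19.

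The calls for Serpinb8 and Fpr1 held without any 1 library. The others were each lost in several such fits, at adjusted p up to 0.156. For Aplp2 these were the fits without femur 3 or tibia 1 or 2 of mouse 7, or any femur library or tibia 1 or 3 of mouse 19. For Fpr2 they were those without femur 2 or 3 or tibia 1 or 2 of mouse 7, or femur 1 or tibia 1 or 2 of mouse 19. For Itgam they were those without femur 2 or 3 or tibia 2 of mouse 7, or femur 1 or 2 or tibia 1 or 2 of mouse 19. For Itgb1 they were those without femur 1 or 2 or tibia 2 or 3 of mouse 7, or femur 1 or 3 or any tibia library of mouse 19. For Met they were those without femur 1 or 2 or any tibia library of mouse 7, or femur 1 or 2 or tibia 1 or 2 of mouse 19.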

How the results depend on the processing

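For the members, tibia over femur ranged from 2.90 to 3.10 on the log2 scale for Spint1 and from -0.65 to -0.46 for Serpinb2 over all alternatives, and no member's value moved by more than the spread between libraries. The members' other results kept their side of the threshold except the tibia differences of Spint2 and Plaur between mice, given above. Over all genes, tibia over femur (414 higher, 436 lower) gave 239 and 256 with the replicate block, 50 and 24 with no mouse term and 48 and 17 on sums per animal, and 284 to 498 and 279 to 490 without 1 library. Library numbers do not pair bones (r from -0.047 to 0.001 between same-numbered libraries of a mouse). The block ended the calls of Met (0.0888) and Wfdc17 (0.0950), and those of Itgam (0.0519) and Itgb1 (0.0663) for the difference between mice. The 3 higher and 6 lower protease control genes became 0 and 1 with no mouse term (Serpina3g) or on sums (Itgb3), and 3 to 4 and 4 to 6 without 1 library. The difference between mice (341 and 219) gave 251 to 310 and 147 to 234 without 1 library, and its 6 and 1 protease control genes 2 to 6 and 0 to 1, with 2 lower without the filter. Mouse 19 over mouse 7 gave 1309 to 1760 and 1334 to 1705 in femurs and 627 to 861 and 570 to 923 in tibias. Sums per animal gave 9 to 82 and 2 to 25. Lrp1 passed for the difference between mice without the filter (0.0091) or tibia library 2 of mouse 19 (0.0206). Depth limits St14 and femur Spint1 most.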
